A study of Homo sapiens with 16 samples.

Results

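ERG binding was compared between VCaP cells, a prostate cancer line, and Jurkat cells, a T-cell leukaemia line, to ask how far the sites bound in each line were the same. The sites were 4126 genomic regions with a strong ERG peak in at least 1 of 4 samples, out of 15405 regions with a strong peak in any of the 10 ChIP-seq samples of the series, which also measured the related factor GABPα. A strong peak was a whole peak of the program MACS that overlapped, by at least 1 bp, an interval in the authors' high confidence set, and any MACS peak at all was taken as the weak level. The VCaP samples were 1 that received vehicle (ethanol) and 1 that received R1881 (methyltrienolone), a synthetic androgen, at 1 nM, both after 48 h in charcoal-stripped serum, and the Jurkat samples were 2 replicates with no treatment listed. A further VCaP ERG sample labelled t0, with 2 strong peaks, was used only as another readout. For all ERG samples, the catalogue number of the antibody in the labels is not the one that the study's methods list for ERG. Which antibody was used was not settled here, and it bears on every ERG value below.

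ERG is a member of the ETS family of transcription factors, which share a DNA-binding domain and recognise a short common core motif. VCaP cells carry the TMPRSS2-ERG gene fusion, which places ERG under the control of an androgen-responsive promoter. In blood cells, ERG is known as a regulator of haematopoietic development. GABPα is an ETS factor that is expressed in most tissues and is known for binding at promoters.

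The ERG sets differed in size within each line as well as between lines. Vehicle-treated VCaP cells gave 19504 MACS peaks, of which 743 were strong, and R1881-treated cells gave 23947, of which 2046 were strong. Jurkat replicate 1 gave 7288 MACS peaks with 1103 strong ones, and replicate 2 gave 15229 with 1550 strong ones. MACS scores rise as the p-value of a peak falls (10 times its negative decimal logarithm), and their median over strong peaks was 331 with vehicle, 389 with R1881, 202 in Jurkat replicate 1 and 245 in replicate 2. The depth of each library is unknown, so scores were compared only as percentiles among the strong peaks of a sample. Both VCaP samples were called against the same input lane, and both Jurkat replicates against another. The cell line, the input and the sequencing therefore cannot be told apart as sources of a difference between lines. With 2 samples a line, an exact permutation test over samples cannot give a two-sided p below 0.333, and intervals given over sites cover counting error only.

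Very few strong ERG sites were found in both lines. Merging the strong peaks of a line gave 2345 VCaP sites and 1855 Jurkat sites. Of the VCaP sites, 70 overlapped a Jurkat site, which was 2.99% (95% Wilson interval 2.37 to 3.75%), and 69 of the Jurkat sites, 3.72% (interval 2.95 to 4.68%), overlapped a VCaP site. These are called shared sites, and the others line-specific. Counting any ERG MACS peak in the other line added 64 VCaP sites, which brought the share to 5.71%, and 2211, or 94.3%, had none. It added 163 Jurkat sites, which brought the share to 12.5%, and 1623, or 87.5%, had none. Among all MACS regions, 3.59% of the 35555 in VCaP cells and 6.63% of the 18917 in Jurkat cells overlapped the other line. For comparison, 50.9% of the 6011 GABPα sites in VCaP cells with vehicle or R1881 overlapped a Jurkat GABPα site, and 33.2% of the 9178 Jurkat GABPα sites overlapped one in VCaP cells. These GABPα samples had 5223 to 8465 strong peaks, more than any ERG sample, so the shares of the factors were not compared at a like set size.

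By sample, 7.54% of the strong peaks with vehicle were shared, 2.35% of those with R1881, 9.16% of those in Jurkat replicate 1 and 3.61% of those in replicate 2. The lines overlapped in this share (exact permutation test, two-sided, p = 0.667), and in each line the smaller set had the larger share. These shares count peaks, and Jurkat replicate 1 often had more than 1 at a site. At shared Jurkat sites it had 106 strong peaks at 60 sites, and replicate 2 had 56 at 56 sites. Some of these peaks did not themselves overlap a strong VCaP peak. Sites strong in both samples of a line numbered 437 in VCaP and 734 in Jurkat cells. Of these, 22 were common to both lines, which was 5.03% of the VCaP and 3.00% of the Jurkat sites.

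The shared sites were concentrated in a few blocks of the genome. For each chromosome, the longest stretch without a MACS peak in any of the 10 samples was taken, and a site within 1 Mb of its edge was counted as near it, a measure chosen after the positions had been seen. Sites on unplaced sequence were counted as away from it. Centromeres and other long repeats are known to leave such stretches in a genome assembly, but no hg18 annotation was used here, so what the stretches hold was not measured. Of the 70 shared VCaP sites, 53 lay near the stretch, 75.7% (interval 64.5 to 84.2%). Of the 2275 VCaP-specific sites, 11 did, 0.484% (interval 0.270 to 0.864%), and of all VCaP ERG MACS regions 2.11% did. In Jurkat cells, 52 of the 69 shared sites were near the stretch, 75.4%, compared with 53 of 163 sites with a weak VCaP peak (32.5%), 66 of 1623 sites with none (4.07%) and 3.69% of all Jurkat ERG MACS regions. The shared GABPα sites did not have this position, with 0.589% of 3058 in VCaP cells near the stretch.

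**Figure D1:**
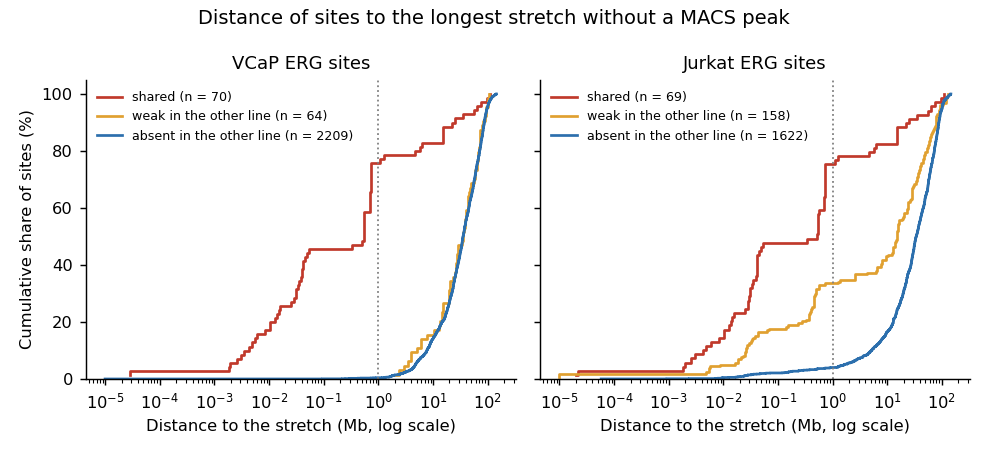
Cumulative share of VCaP (left) and Jurkat (right) ERG sites by distance in Mb (log axis) to the longest stretch of their chromosome without a MACS peak, for sites that were shared, weak or absent in the other line; the dotted line marks 1 Mb, and the 2 VCaP and 6 Jurkat sites on unplaced sequence are left out. The red curve of the shared sites passes 75% before the dotted line in both lines, and the blue curve of the sites absent in the other line stays under 5% there.

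Without the sites near the stretch, 17 of 2281 VCaP sites were shared, 0.745% (interval 0.466 to 1.19%), and 17 of 1684 Jurkat sites, 1.01% (interval 0.631 to 1.61%). Counting any MACS peak in the other line, the shares were 3.55% for VCaP and 7.54% for Jurkat. Close to the stretch, 53 of 64 VCaP sites (82.8%) and 52 of 171 Jurkat sites (30.4%) were shared.

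**Figure D2:**
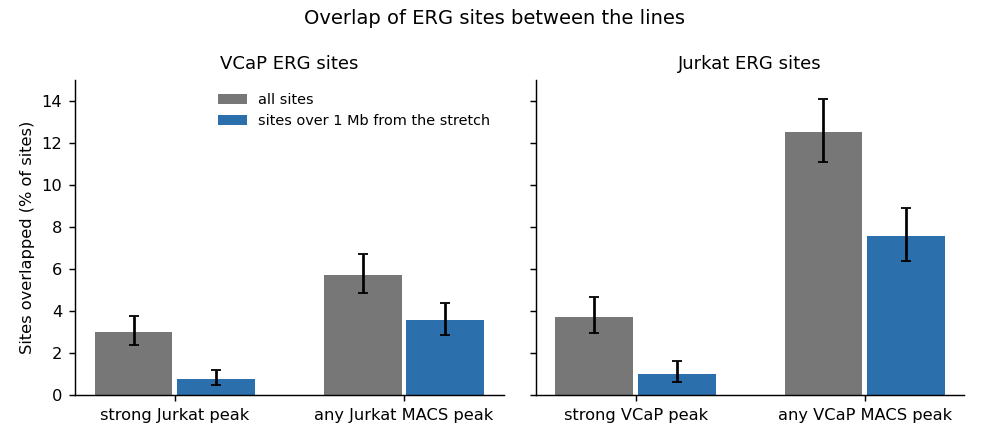
Share of VCaP (left) and Jurkat (right) ERG sites, in % of sites, that overlapped a strong peak or any MACS peak of the other line, for all sites (grey) and for sites over 1 Mb from the longest stretch without a peak (blue), with 95% Wilson intervals as error bars. Leaving out the sites near the stretch lowered the strong overlap from 2.99% to 0.745% in VCaP and from 3.72% to 1.01% in Jurkat cells.

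Merging all 4 samples gave 65 regions that were strong in both lines. Of these, 48 lay near the stretch, on chromosomes 2, 4, 10 and 16. The block on chromosome 16 held 17 of them within 46.2 kb, from 44943239 to 44989474 of hg18, next to the upper edge of the stretch. It contained 18 strong ERG peaks with vehicle, 15 with R1881, 54 in Jurkat replicate 1 and 32 in replicate 2. On chromosome 2, 12 regions lay between 90960474 and 91634710, with 15, 9, 25 and 15 strong peaks in the same order of samples. On chromosome 4, 9 regions lay between 48795556 and 49352931, with 7, 6, 24 and 21 strong peaks. Chromosome 10 had a block on each side of its stretch, 8 regions from 41674882 to 41725524 and 2 regions from 38855195 to 39179089. All 4 samples had many peaks in the chromosome 16 block, and Jurkat replicate 1 had the most, although it had fewer MACS peaks in all than any of the other 3. Its strong peaks there were also the narrowest, with a median of 130 bp. Whether its count comes from narrow, separate peaks was not tested. The t0 ERG sample had no MACS peak in the chromosome 16 block, and GABPα had 3 MACS peaks there with vehicle, 2 with R1881, 15 in Jurkat replicate 1 and 21 in replicate 2.

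Within this block, the median score and the median width lay below those of all strong peaks in each of the 4 samples. The median score was 133 with vehicle and 154 with R1881, compared with 166 and 146 in Jurkat replicates 1 and 2. The median width was 257 bp with vehicle, 654 bp with R1881, 130 bp in replicate 1 and 634 bp in replicate 2, and over all strong peaks it was 572, 684, 387 and 845 bp in the same order. The widths in the block differed more between the samples of a line than between the lines.

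Of the 65 regions, 22 were strong in all 4 samples, and 21 of these lay near a stretch. Among these 22, the highest by mean score percentile was chr16:44984797-44985964, with scores of 629 with vehicle, 722 with R1881, 568 in Jurkat replicate 1 and 916 in replicate 2. These scores were at percentiles 86.9, 85.6, 91.7 and 95.7 of their samples. The next, chr16:44943239-44944411, had scores of 684, 654, 493 and 664 in the same order. The third, chr16:44945809-44947072, had 314, 447, 559 and 1101. The fourth and the fifth, chr2:90974359-90976030 and chr2:90967627-90968990, had 226 and 132 with vehicle, 423 and 214 with R1881, 377 and 699 in replicate 1, and 546 and 1005 in replicate 2. All 5 regions lay within 1 Mb of a stretch, and each had a GABPα MACS peak in Jurkat replicate 2.

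The 17 shared regions away from the stretches are described together, a choice made after their values had been seen. The one strong in all 4 samples was chr10:98551086-98551698, with a score of 104 with vehicle and 76.0 with R1881, at percentiles 4.91 and 1.39, and 228 and 495 in Jurkat replicates 1 and 2, at percentiles 57.2 and 83.5. It ranked low in VCaP cells and high in Jurkat replicate 2. At chr1:156439958-156441240, scores were 441 with vehicle, 366 in Jurkat replicate 1 and 573 in replicate 2, and the R1881 sample had a peak of 196 that was not strong. At chr10:17077870-17078696, scores were 335, 253, 509 and 268, and GABPα had a peak in all 5 of its samples there, the highest at 1123 in VCaP cells with R1881. Of the 17 regions, 16 had a GABPα MACS peak in Jurkat cells and 8 had one in VCaP cells with vehicle or R1881. Not all of the 17 lay far from a stretch or from each other. The regions chr16:34047437-34049700 and chr16:33882100-33883205 lay 1.09 and 1.25 Mb from the stretch of chromosome 16, just beyond the 1 Mb limit. The regions chrY:12146776-12148379 and chrY:12154681-12155355 lay close together. Values for other limits are not given here.

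Among strong peaks in VCaP cells, the shared ones ranked low. The median score percentile of the 56 shared peaks with vehicle was 11.9, compared with 52.8 for the VCaP-specific peaks, and that of the 48 shared peaks with R1881 was 9.65, compared with 50.8. The gap was -40.9 percentile points with vehicle and -41.2 with R1881, a mean of -41.0 ± 0.186 (SD, n = 2). These samples are different treatments called against the same input, so this SD is not a spread of replicates. Of their shared peaks, 44 with vehicle and 36 with R1881 lay near a stretch. The direction depended on the peaks compared, since the VCaP gap was 12.0 points among all MACS peaks and 12.9 among strong peaks scoring at least 400, where only 6 sites were shared. The Jurkat replicates differed in direction. In replicate 1 the median percentile was 39.8 for 101 shared peaks and 51.0 for Jurkat-specific ones, and in replicate 2 it was 71.3 for 56 shared peaks and 49.4 for the others. The Jurkat gap of 5.36 ± 23.4 points (SD, n = 2) was thus smaller than its spread. Over the 4 samples, an exact sign-flip permutation test, whose smallest two-sided p is 0.125, gave p = 0.375.

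**Figure D3:**
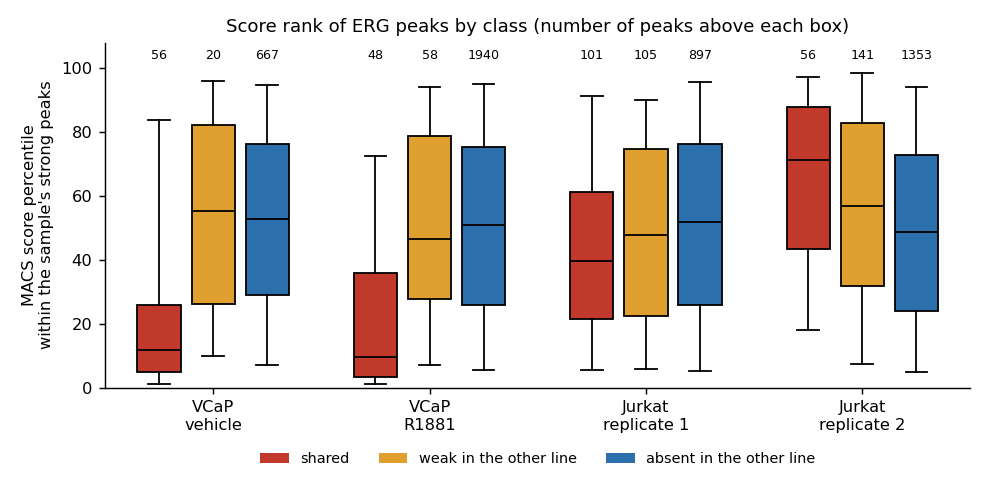
MACS score percentile among the strong peaks of each ERG sample (y axis) for peaks that were shared, weak or absent in the other line; boxes span the quartiles with the median as a line, whiskers the 5th to 95th percentile, and the number of peaks stands above each box. The shared boxes lie low in both VCaP samples, with medians of 11.9 and 9.65, and high in Jurkat replicate 2, with a median of 71.3.

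The low rank came partly with position. Among the vehicle peaks, 22.0% of the lowest score quartile were shared and 3.76%, 2.16% and 2.15% of the quartiles above it. With R1881, the shares were 6.64%, 1.37%, 0.781% and 0.587% from the lowest to the highest quartile. In Jurkat replicate 1, the shares were 12.0%, 9.78%, 10.5% and 4.35% in the same order, whereas in replicate 2 the order was the opposite, with 1.80% in the lowest and 6.46% in the highest quartile. Without the peaks near the stretch, the vehicle shares were 2.05%, 1.65%, 2.16% and 1.09%. With R1881 they still fell from the lowest to the highest quartile, with 1.24%, 0.795%, 0.395% and 0.0%, on 6, 4, 2 and 0 shared peaks. The 12 shared peaks left in each VCaP sample had a median percentile of 49.3 with vehicle and 29.7 with R1881. The VCaP gap was then -12.6 points, and 1 SD around it ran from -24.9 to -0.279. Low-scoring peaks were also more often strong near the stretch than elsewhere. Of the MACS peaks with a score below 150 near the stretch, 5.57% were strong with vehicle, 4.36% with R1881, 20.0% in Jurkat replicate 1 and 10.9% in replicate 2. Elsewhere these shares were 0.377%, 0.839%, 4.26% and 2.86%.

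Widths showed no common difference between shared and line-specific peaks. The median width of shared and VCaP-specific peaks was 500 and 574 bp with vehicle, and 839 and 682 bp with R1881. In Jurkat replicate 1 it was 177 bp for shared and 398 bp for Jurkat-specific peaks, and in replicate 2 it was 1022 and 841 bp. The sign of the gap differed within each line, with a mean of 41.0 ± 163 bp in VCaP and -19.8 ± 285 bp in Jurkat cells (SD, n = 2 each), and the exact sign-flip permutation test gave p = 1.0. Within score quartiles the direction differed as well. In the lowest score quartile, shared and line-specific medians were 450 and 587 bp with vehicle, 789 and 664 bp with R1881, 147 and 326 bp in Jurkat replicate 1, and 621 and 819 bp in replicate 2. In the highest quartile, with only 4, 3, 12 and 25 shared peaks, they were 955 and 594 bp, 1157 and 737 bp, 344 and 476 bp, and 1463 and 910 bp. Shared peaks were the narrower ones in every quartile in Jurkat replicate 1. With R1881 they were the wider ones in the lowest and the highest quartile, but not in the second lowest, with 622 and 656 bp.

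Shared sites, most of which lay in the blocks near the stretches, were also the most clustered ones. A neighbouring site of the same line lay within 25 kb of 417 VCaP sites, 17.8% (interval 16.3 to 19.4%), and of 470 Jurkat sites, 25.3% (interval 23.4 to 27.4%). Among the denser MACS regions, this was 65.7% in VCaP and 54.9% in Jurkat cells. The share was 74.3% for shared VCaP sites, 6.25% for those with a weak Jurkat peak and 16.3% for those with none. In Jurkat cells it was 78.3% for shared sites, 49.7% for those with a weak VCaP peak and 20.6% for those with none. The median distance to the nearest site was 1339 bp for shared and 262552 bp for VCaP-specific sites, and 558 and 198985 bp in Jurkat cells. Counted in single samples, 12.2% and 16.2% of the strong peaks with vehicle and R1881 had a neighbour, and 27.7% and 22.7% of those in Jurkat replicates 1 and 2. Both Jurkat values lay above both VCaP values (exact permutation test, p = 0.333, the smallest possible). Away from the stretches, the line shares were 16.1% for VCaP and 19.0% for Jurkat. The clustering of shared sites cannot be told apart from the blocks, since 53 of 70 VCaP and 52 of 69 Jurkat ones lay near a stretch. The same holds in part for the Jurkat sites with a weak VCaP peak, 53 of 163 of which lay near one. Neighbours of the 17 shared sites elsewhere were not counted as a class.

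The 3 VCaP clusters with the most sites were all in the blocks above. They held 19 sites on chromosome 16, 12 on chromosome 2 and 8 on chromosome 10, and every one of these sites was shared. The 3 Jurkat clusters with the most sites, on chromosomes 16, 10 and 4, held 41, 25 and 15 sites, of which 17, 12 and 7 were shared. On chromosomes 16 and 10, the Jurkat cluster covered the whole VCaP cluster and added Jurkat-specific sites. Clusters elsewhere were smaller, and those named here were chosen after their values had been seen. Away from the stretches, no VCaP cluster had more than 4 sites and no Jurkat cluster more than 7. One VCaP cluster, chr7:41120723-41155482, had 2 strong peaks with vehicle and 4 with R1881 in 34.8 kb, and no MACS peak in either Jurkat ERG replicate. Another, chr19:56037008-56078249, had 3 strong peaks in each VCaP sample and no ERG MACS peak in Jurkat cells. The Jurkat cluster chr7:92091993-92153815 had 5 strong peaks in replicate 1 and 3 in replicate 2, and 1 ERG MACS peak in VCaP cells, with R1881.

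The VCaP sites without a Jurkat MACS peak that are named here were chosen by score percentile, taken over the VCaP samples in which a site was strong. The first, chr19:56073032-56078249, was 5218 bp wide, with a score of 3100.0 in both VCaP samples, and it also had a t0 peak of 1744. This score was the highest in each VCaP sample, and the same value recurred at Jurkat sites named below. Whether 3100.0 is a limit of the score was not tested, so equal values there need not mean equal strength. The second, chr1:32739990-32740646, had 1751 with vehicle and 2852 with R1881, a t0 peak of 284 and GABPα peaks of 613 with vehicle and 660 with R1881. The other three were strong with R1881 only. They were chr10:95524708-95526187, with 2825 and a MACS peak of 799 with vehicle, chr12:120853808-120854411, with 2564 and no vehicle peak, and chr1:203870387-203875150, with 2080 and a MACS peak of 355 with vehicle. None of the 5 had a GABPα MACS peak in Jurkat cells.

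Most VCaP-specific sites were strong in 1 treatment. Of the 2275, 407 were strong in both VCaP samples, 277 with vehicle only and 1591 with R1881 only. The difference was less sharp at the weak level, since 80.1% of the vehicle-only sites had a MACS peak with R1881, and 60.4% of the R1881-only sites had one with vehicle. The sites strong in both had higher ranks, with a median percentile of 62.8 with vehicle and 65.8 with R1881, compared with 38.3 for vehicle-only and 47.8 for R1881-only sites. An ERG MACS peak at t0 was found at 29.2% of the sites strong in both, 13.0% of the vehicle-only sites and 6.10% of the R1881-only sites, compared with 3.12% of all VCaP ERG MACS regions.

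Shared and VCaP-specific sites differed in how they were spread over the treatments. Of the 70 shared sites, 74.3% were strong with vehicle and 68.6% with R1881, while 30.1% of the VCaP-specific sites were strong with vehicle and 87.8% with R1881. Where both samples had a MACS peak, the median score was 157 with vehicle and 175 with R1881 at 54 shared sites, and R1881 was higher at 48.1% of them. At 1590 VCaP-specific sites it was 201 and 389, and R1881 was higher at 75.3%. With 1 sample a treatment, the treatment and the library cannot be told apart, and these differences have no replicate check. At the 17 shared sites away from the stretch, 76.5% were strong with vehicle and 70.6% with R1881.

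In Jurkat cells, the highest sites without a VCaP MACS peak were strong in both replicates. The first, chr6:135685339-135686742, had scores of 3139 in replicate 1 and 3100.0 in replicate 2, with GABPα peaks of 349 and 275. The second, chr10:63195097-63195994, had 3100.0 in each and the highest GABPα scores of the 5, 1366 and 1303. The third, chr7:16274778-16276083, had 2411 and 2196. The fourth, chr1:158776125-158777606, had 1783 and 2352 and no GABPα peak. The fifth, chr2:68073801-68074807, had 1606 and 2473 with weak GABPα peaks of 101 and 64.4. No VCaP sample had a MACS peak of either factor at any of these 5 sites.

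Of the 1786 Jurkat-specific sites, 687 were strong in both replicates (38.5%), 292 in replicate 1 only and 807 in replicate 2 only. A MACS peak in the other replicate was found at 70.5% of the sites of replicate 1 only and at 60.0% of those of replicate 2 only. Sites strong in both replicates had a median percentile of 63.0 in replicate 1 and 67.8 in replicate 2, compared with 30.5 and 35.2 for those strong in 1 replicate. A weak VCaP peak was found at 11.8% of the sites strong in both replicates and at 7.53% and 7.43% of those strong in replicate 1 or replicate 2 only. Of the shared Jurkat sites, 68.1% were strong in both replicates (interval 56.4 to 77.9%), but away from the stretch this was 41.2% of 17 (interval 21.6 to 64.0%), close to the 37.8% of Jurkat-specific sites there.

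The line-specific peaks were spread differently over the chromosomes. DNA copy number was not available for either line, so copy number and binding cannot be told apart in the chromosome shares and window counts below. On 22 of the 24 chromosomes (91.7%), the share of a sample's line-specific peaks did not overlap between the lines, 12 with VCaP higher and 10 with Jurkat higher. With this background, a lack of overlap is no mark of any 1 chromosome, and each had the smallest possible p of 0.333 (exact permutation test), so the size of the difference is described. Chromosomes 8 and 7 differed most. Chromosome 8 held 9.75% of the vehicle and 8.46% of the R1881 peaks, and 5.09% and 4.75% of those in Jurkat replicates 1 and 2, a difference of 4.18 percentage points. At the weak level it held 12.1% and 11.0% of all VCaP ERG MACS peaks, and 4.67% and 4.84% of the Jurkat ones. GABPα strong peaks did not show the same order, with 3.66% and 3.62% on chromosome 8 in VCaP cells and 4.17% and 4.35% in Jurkat cells, whereas GABPα MACS peaks had 6.16% and 6.17% in VCaP and 4.89% and 4.85% in Jurkat cells.

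Chromosome 7 held 8.44% and 8.26% of the VCaP-specific peaks with vehicle and R1881, and 4.29% and 4.48% of the Jurkat-specific ones in replicates 1 and 2, a difference of 3.96 points. The order of these chromosomes was not stable, since without the vehicle sample the difference was 3.95 points on chromosome 7 and 3.63 on chromosome 8, and without Jurkat replicate 2 it was 3.99 and 3.93. The GABPα strong peaks on chromosome 7 had the same order of lines with a smaller difference. Their shares were 4.87% and 5.04% in VCaP cells with vehicle and R1881, and 4.46% and 4.56% in Jurkat replicates 1 and 2. GABPα MACS peaks had 5.78% and 5.90% in VCaP cells, and 4.92% and 4.96% in Jurkat cells. Chromosomes 12, 5 and 21 were also higher in VCaP cells, by 2.61, 2.25 and 1.28 points. Counted in windows of 10 Mb, chosen after the counts had been seen, the most VCaP-specific sites lay on chromosome 8 from 130 to 140 Mb, with 25 VCaP-specific and 13 Jurkat-specific sites. Chromosome 7 from 40 to 50 Mb held 24 and 2, chromosome 8 from 70 to 80 Mb held 22 and 0, chromosome 8 from 120 to 130 Mb held 20 and 8, and chromosome 19 from 50 to 60 Mb held 20 and 7.

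Jurkat-specific peaks had larger shares on chromosomes 10, 16, 4, 1 and Y. On chromosome 16 the shares were 4.29% and 3.75% in Jurkat replicates 1 and 2, compared with 0.437% with vehicle and 0.851% with R1881, a difference of -3.38 points. On chromosome 10 they were 7.68% and 6.63%, compared with 2.91% and 4.60%, and on chromosome 4 they were 7.39% and 6.69%, compared with 4.37% and 3.65%. These 3 chromosomes carry blocks near the stretches. Among strong peaks away from them, chromosome 16 had 2.18% and 2.40% in Jurkat cells and 0.718% and 0.900% in VCaP cells, and chromosome 10 had 5.56% and 5.58% compared with 3.16% and 4.65%. Chromosome 4 had 6.3% and 5.9% compared with 4.3% and 3.6%. The order of the lines thus held there with smaller differences. On chromosome 1 the shares of line-specific peaks were 9.18% and 10.2% in Jurkat cells and 6.99% and 8.31% in VCaP cells. Chromosome Y held 33 Jurkat and 4 VCaP sites, and 11 of the Jurkat ones and 0 of the VCaP ones lay near its stretch. In windows of 10 Mb, chromosome 16 from 40 to 50 Mb held the most Jurkat-specific sites, 27, and 1 VCaP-specific site. Chromosome 10 held 25 and 5 from 40 to 50 Mb, and 22 and 7 from 30 to 40 Mb. Chromosome 4 from 40 to 50 Mb held 22 and 4, and chromosome Y from 10 to 20 Mb held 18 and 1. The windows on chromosomes 16, 10 and 4 include the blocks above.

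**Figure D4:**
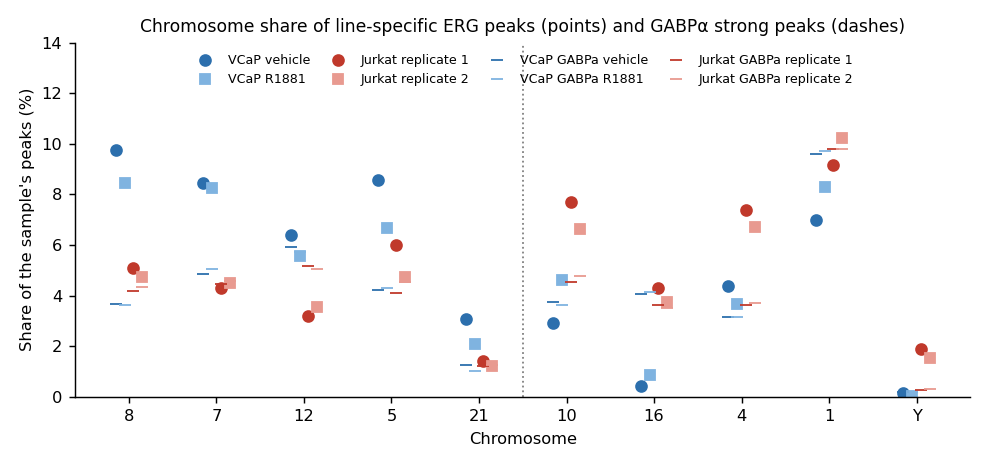
Share of each sample's line-specific strong ERG peaks (points) and of its GABPα strong peaks (dashes) on the 5 chromosomes with the largest difference in each direction, in % of peaks; VCaP samples are blue and Jurkat samples red. On chromosomes 8 and 7 both VCaP points lie above 8% and both Jurkat points below 6%, while the 4 GABPα dashes lie between 3% and 6%.

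GABPα was found at different ERG sites in each line. A strong GABPα peak of the same line overlapped 11.5% of the VCaP-specific and 5.71% of the shared VCaP sites, a difference of -5.76 percentage points. In Jurkat cells, this was 28.8% of the Jurkat-specific and 63.8% of the shared sites, a difference of 35.0 points. By sample, VCaP-specific and shared sites had 7.52% and 4.29% with vehicle and 9.49% and 4.29% with R1881, and Jurkat-specific and shared sites had 18.8% and 33.3% in replicate 1 and 27.4% and 63.8% in replicate 2. Without the sites near the stretch, the shared VCaP sites had 23.5% (4 of 17, interval 9.56 to 47.3%) and the VCaP-specific ones 11.5%, so the VCaP difference turned to 12.0 points, with an interval of -2.04 to 35.8. The direction in VCaP cells therefore rested on the blocks, where 0 of 53 shared sites had a strong VCaP GABPα peak, which allows a share of up to 6.76% by the Wilson interval. The Jurkat difference without the sites near the stretch was 35.1 points, with an interval of 11.6 to 53.2. As background, strong GABPα peaks lay at 1.54% and 1.55% of all VCaP ERG MACS regions with vehicle and R1881, and at 6.92% and 9.84% of the Jurkat regions in replicates 1 and 2.

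At the weak level, the GABPα peaks of a line were more frequent at the ERG sites of that line without a MACS peak in the other than at those of the other line. GABPα MACS peaks were present at 33.3% and 46.9% of the VCaP sites absent in Jurkat cells, with vehicle and R1881, and at 4.30% and 4.25% of the same sites in Jurkat replicates 1 and 2. Among all VCaP ERG MACS regions, the background was 9.55% and 12% in VCaP cells and 3.49% and 3.64% in Jurkat cells. The Jurkat sites absent in VCaP cells had GABPα MACS peaks at 54.0% and 58.5% in Jurkat replicates 1 and 2, and at 2.03% and 1.66% in VCaP cells with vehicle and R1881, against 24.5%, 25.3%, 2.16% and 1.97% of all Jurkat regions. In Jurkat cells, the shared Jurkat sites had more, 60.9% and 84.1%. Shared VCaP sites had 62.9% and 87.1% in Jurkat cells and 15.7% and 12.9% in VCaP cells. The low VCaP values came with the blocks, with 9.43% and 7.55% of the 53 shared sites near the stretch. The 17 shared VCaP sites away from it had 35.3% and 29.4% in VCaP cells (intervals 17.3 to 58.7% and 13.3 to 53.1%), and 82.4% and 94.1% in Jurkat cells. VCaP sites with a weak Jurkat ERG peak had GABPα in both lines, 45.3% and 59.4% in VCaP and 50.0% and 45.3% in Jurkat cells. The t0 ERG sample had a MACS peak at 1 of 70 shared VCaP sites (1.43%), 13 of 64 with a weak Jurkat peak (20.3%) and 239 of 2211 with none (10.8%). It had a peak at 7 of the 1623 Jurkat sites absent in VCaP cells (0.431%).

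**Figure D5:**
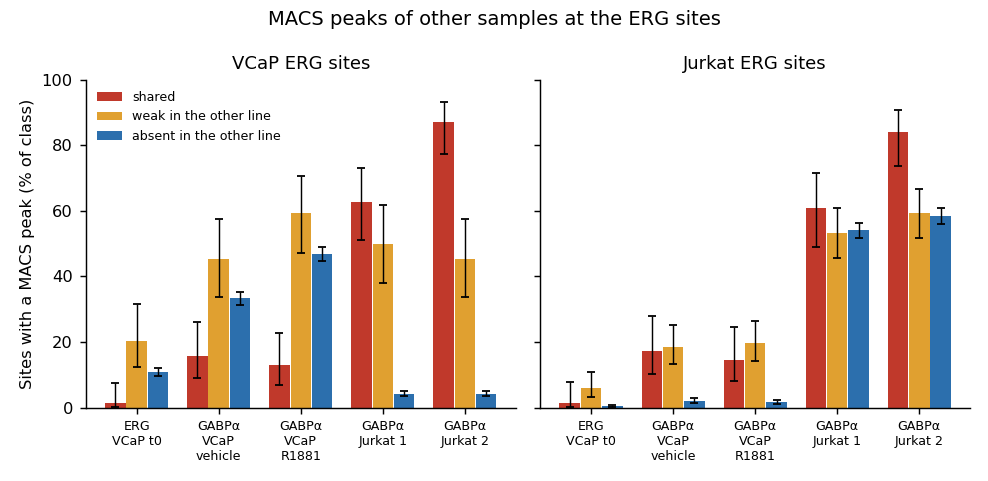
Share of VCaP (left) and Jurkat (right) ERG sites, in % of each class, with a MACS peak of the t0 ERG sample or of 4 GABPα samples, for sites that were shared, weak or absent in the other line, with 95% Wilson intervals as error bars. At VCaP sites the shared bars are the tallest for both Jurkat GABPα replicates (62.9% and 87.1%) and the lowest for both VCaP GABPα samples (15.7% and 12.9%).

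Shared sites had MACS peaks in more of the 10 ChIP samples than line-specific ones. The median was 6 samples for shared sites in each line, 5 for sites with a weak peak in the other line, and 2 for VCaP and 3 for Jurkat sites absent in the other line. Peaks in at least 6 samples were found at 51.4% of the shared VCaP and 59.4% of the shared Jurkat sites, and at 3.48% and 1.17% of the sites absent in the other line. A shared site has by its definition an ERG MACS peak in at least 2 samples, and an absent site has none in the 2 samples used for the other line. Both definitions are part of this difference. The largest number of samples was 9 at shared sites, and 8 and 7 at VCaP and Jurkat sites absent in the other line.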

How the data were processed

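Peaks of 4 ERG samples and, as other readouts, of 6 further ChIP-seq samples were analysed, and 6 inputs were not analysed here. Per the study's methods, the authors aligned reads to hg18 with BWA 0.5.5, removed low quality and duplicate reads, called peaks sample by sample with both MACS and SWEMBL, using input as the control, and took peaks found by both as high confidence. The MACS version is not given in the sources used here. Positions and scores come from the deposited MACS files, in which the score started at 50, the limit of 1e-05 set on the p-value. Read numbers, and so depth, are unknown. The high confidence files list whole MACS peaks for some samples and pieces of peaks for others, so whole MACS peaks over an interval were used throughout, and the remaining column of the 4-column files was not used.

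Overlaps, site merging (at least 1 bp) and percentiles, with ties at their mean rank, were computed with Python 3.11.15, numpy 2.4.6 and scipy 1.17.1 and checked against bedtools 2.31.1 on simulated intervals. Gaps are differences of medians within a sample. Intervals are 95% Wilson, and those of differences between shares combine the Wilson intervals of both shares. Named sites were the 5 highest by mean score percentile, over the samples in which a site was strong, among shared sites strong in all 4 samples and among the sites of each line without a MACS peak in the other, the 3 largest clusters of each line and the 5 chromosomes with the largest difference in each direction. The alternatives were high confidence intervals as deposited, every MACS peak, strong peaks scoring at least 400, a required overlap of 50% of the shorter peak, only the top 500 peaks of a sample, other neighbour distances, leaving out each sample, and leaving out sites near the stretches. The classes, measures and lists were chosen with earlier results of these data known. Gene names, motifs and sequences were not analysed, since neither sequence nor annotation of hg18 was used here.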

Additional observations from a re-analysis of the deposited data

Results flagged for a closer look

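Over all sites, the difference between shared and line-specific ERG sites in the share with a strong GABPα peak had opposite signs in the lines. Shared minus VCaP-specific sites gave -3.23 percentage points with vehicle and -5.21 with R1881. Shared minus Jurkat-specific sites gave 14.5 points in Jurkat replicate 1 and 36.3 in replicate 2. Both VCaP values were negative, but they rest on the same 70 shared sites, of which 3 had a peak in each sample. Over both treatments, the VCaP difference of -5.76 points had an interval of -9.49 to 2.41, which spans both directions. The difference between the lines was not tested. Without the sites near the longest stretch without a peak, the VCaP difference over both treatments was 12.0 points, with an interval of -2.04 to 35.8. The Jurkat difference over both replicates was then 35.1 points, with an interval of 11.6 to 53.2, so the lines no longer had opposite signs.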

How the results depend on the processing

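Of 114 values from alternatives, 56 kept their sign and stayed within the interval or SD of the value reported. A further 45 left that interval or SD in the same direction, and 13 changed sign, 10 of them within it and 3 outside. The shares of sites that were shared or had a neighbour are percentages, so these values could not change sign. The neighbour share of a line also depends neither on samples of the other line nor on the overlap required, so it stayed unchanged in those alternatives. The tally therefore includes values that could not change, and it is no measure of how stable the results were. No result had a test that could pass 0.05. VCaP sharing was 0.552% at scores of at least 400, 1.07% among the 500 highest peaks and 0.745% away from the stretches, and 2.35 to 7.54% when a sample was left out, the highest without the R1881 sample. Jurkat sharing was 5.13% with intervals as deposited, 6.63% with all MACS peaks, 1.39% at the higher score, 1.28% among the highest 500 and 1.01% away from the stretches, and 2.53 to 9.16% with a sample left out, the highest without replicate 2. The VCaP score gap was -39.6 points with intervals as deposited, -9.80 among the highest 500 and -12.6 away from the stretches, turned to 12.0 with all MACS peaks and 12.9 at the higher score, and was -41.3 to -40.9 with a sample left out. The Jurkat score gap ran from -11.2 without replicate 2 to 21.9 without replicate 1. The VCaP width gap was -95.0 bp with intervals as deposited, 351 bp at the higher score, 268 bp among the highest 500 and -42.5 bp away from the stretches, and -74.5 to 156 bp with a sample left out. The Jurkat width gap turned to 59.5 bp with all MACS peaks, 73.0 bp at the higher score, 106 bp among the highest 500 and 5.25 bp away from the stretches, and was -221 to 182 bp with a sample left out. In the same order (intervals as deposited, all MACS peaks, higher score, highest 500, away from the stretches, 10 kb, 100 kb), sites with a neighbour were 24.97%, 65.7%, 9.84%, 8.28%, 16.1%, 10.8% and 33.8% in VCaP cells, and 34.3%, 54.9%, 11.6%, 14.98%, 19.0%, 18.2% and 40.8% in Jurkat cells. With a sample left out they were 12.2 to 17.8% and 22.7 to 27.7%. The GABPα difference in VCaP cells was 1.98 points with all MACS peaks, -13.5 at the higher score and 12.0 away from the stretches, and -8.80 to -4.39 with a sample left out. In Jurkat cells it was 45.9, 5.31, 52.8 and 47.0 points with intervals as deposited, all MACS peaks, the higher score and the highest 500. It was 35.1 points there away from the stretches, and 35.6 to 45.9 with a sample left out. The chromosome 8 difference was 7.03 points with all MACS peaks and 3.22 at the higher score, and 3.63 to 4.88 with a sample left out, and chromosome 7 differed more at the higher score (5.85), among the highest 500 (5.86) and away from the stretches (3.91 points). The cause of these changes was not tested. The distance to the stretches was chosen after seeing the data. At the higher score only 6 sites were shared in each line, and 9 among the highest 500, so gaps there rest on few sites. No paired analysis was possible because the VCaP samples are different treatments without replicate numbers. Depth is unknown, so what it limits could not be measured.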
